A study of Homo sapiens with 4 samples.

Results

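Semaphorins, plexins, neuropilins, Eph receptors and ephrins are cell-surface guidance genes, and 53 of the 25702 genes in the count files belong to them. They were taken by name, as protein-coding genes whose symbol starts with SEMA, PLXN, EPHA, EPHB, EFNA or EFNB, together with NRP1 and NRP2. No measured value entered this rule, but the families were chosen with earlier results of these data known. The 53 are 20 semaphorins, 9 plexins, 2 neuropilins, 14 Eph receptors and 8 ephrins. The antisense RNAs EPHA1-AS1, EPHA5-AS1 and SEMA3F-AS1 share the first letters but are not protein coding and were left out.

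Expression was measured by whole transcriptome sequencing of poly(A)-enriched RNA from K562, a human chronic myeloid leukemia cell line with erythroid features that carries BCR::ABL1. One group received RUNX1::ERG on the LeGO-iG2 plasmid by transfection. The fusion joins parts of the hematopoietic transcription factor RUNX1 and the ETS-family transcription factor ERG. The control group received the empty LeGO-iG2 vector, with 2 biological replicates in each. Both plasmids also express GFP, both groups are listed as untreated, and the model is a single cell line that expresses the fusion from a plasmid. The comparison asks which guidance genes differ in RNA level when RUNX1::ERG is present.

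Semaphorins are secreted or membrane-bound ligands that signal through plexins, large receptors that switch off small GTPases such as R-Ras and Rap and so alter adhesion and the cytoskeleton. Most secreted class 3 semaphorins need a neuropilin as the binding subunit. Eph receptors form the largest family of receptor tyrosine kinases and bind ephrins on neighbouring cells, GPI-anchored ephrin-A or transmembrane ephrin-B, with signals passing into both cells. These families were named for axon guidance but also act in blood vessel growth, leukocyte movement and platelet aggregation.

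Among the 33 of the 53 genes with enough reads to be tested, 4 passed the test. EPHB6, an Eph receptor without kinase activity, and PLXNA1, a receptor for class 3 and class 6 semaphorins, fell with RUNX1::ERG, whereas PLXNA2, a receptor for class 3 and class 6 semaphorins, and PLXNB3, a receptor for SEMA5A, rose. The 2 genes called higher were 6.06% of the tested guidance genes, beside 3.64% of the 15394 genes tested in all, and the 2 called lower were also 6.06%, beside 1.15%. The test was the quasi-likelihood test of edgeR, a gene was called when its p, adjusted by Benjamini and Hochberg's method over all 15394 genes, was under 0.05, and every adjusted p below is from that test unless another is named. These are bulk RNA samples, in which fewer cells expressing a gene and less RNA per cell cannot be told apart.

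The sequence upstream of each of the 4 genes is shown because ERG and RUNX1 belong to families that recognise short core motifs, GGAA for ETS factors and TGTGGT or TGCGGT for RUNX factors. Each window holds the 250 bases before a start of the gene in RefSeq on GRCh38.p14, read 5′ to 3′ on the gene's strand. Matches to either motif on either strand are in capitals. The PLXNA2 window is chr1:208244385-208244634 on the minus strand, that of PLXNA1 is chr3:126982865-126983114, that of EPHB6 is chr7:142862506-142862755 and that of PLXNB3 is chrX:153763999-153764248, the last 3 on the plus strand.
PLXNA2: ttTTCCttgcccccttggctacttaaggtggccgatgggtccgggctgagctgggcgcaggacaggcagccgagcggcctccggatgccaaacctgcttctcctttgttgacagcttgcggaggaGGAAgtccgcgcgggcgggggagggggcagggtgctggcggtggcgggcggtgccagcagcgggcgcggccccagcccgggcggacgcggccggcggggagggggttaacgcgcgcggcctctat
PLXNA1: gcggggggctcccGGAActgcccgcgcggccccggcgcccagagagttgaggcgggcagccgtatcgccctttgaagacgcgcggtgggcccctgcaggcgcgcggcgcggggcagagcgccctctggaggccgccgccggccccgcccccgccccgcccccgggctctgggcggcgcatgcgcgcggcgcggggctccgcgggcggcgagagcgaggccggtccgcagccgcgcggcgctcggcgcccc
EPHB6: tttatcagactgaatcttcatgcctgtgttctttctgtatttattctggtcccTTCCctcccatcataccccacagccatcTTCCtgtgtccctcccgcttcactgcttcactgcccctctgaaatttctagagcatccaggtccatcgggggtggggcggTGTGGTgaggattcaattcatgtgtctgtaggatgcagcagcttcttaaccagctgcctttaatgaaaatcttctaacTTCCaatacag
PLXNB3: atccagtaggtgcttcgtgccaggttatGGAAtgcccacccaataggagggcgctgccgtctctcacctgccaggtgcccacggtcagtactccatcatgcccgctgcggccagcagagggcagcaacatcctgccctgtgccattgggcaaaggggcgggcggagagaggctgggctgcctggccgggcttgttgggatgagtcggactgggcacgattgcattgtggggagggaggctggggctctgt
The GGAA core occurred 2 times upstream of PLXNA2, 3 times upstream of EPHB6 and 1 time upstream of each of PLXNA1 and PLXNB3. Only the EPHB6 window, among these 4, also held a RUNX core, 1 match to TGTGGT. Of 35116 windows of the same length in the RefSeq table, 92.7% held GGAA, 16.3% held a RUNX core and 15.2% held both, so a GGAA match is found in nearly any window. The start used for EPHB6 lies 7680 bases inside the gene's outer end, so its window, with the RUNX core, is within the span of the gene. Windows upstream of its other starts were not read. GC content was 72.4% for PLXNA2, 84.4% for PLXNA1, 48% for EPHB6 and 64.4% for PLXNB3. No binding data were analysed here.

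The library totals ran from 59695387 to 82352144 counts, and the limit that a count of 0 allows, 3 counts, was 0.0364 to 0.0503 CPM, the counts scaled to library size. This limit covers counting error only. Reads on ERG numbered 4 and 4 with the empty vector and 80443 and 27218 with RUNX1::ERG, so the libraries matched their labels, and replicate 1 carried more ERG, 954 normalized CPM beside 379. RUNX1 was at 78.6 and 49.0 normalized CPM with the empty vector and 786 and 400 with RUNX1::ERG. All 10 erythroid markers of K562 were detected, and their normalized CPM summed to between 12181 and 14310 per library. Of the lists for other cell types, the summed megakaryocyte markers (11 genes, GP1BB at 0) were 106 and 106 normalized CPM with the empty vector and 534 and 463 with RUNX1::ERG. For endothelial markers (10 genes, EMCN at 0) the sums were 136, 163, 349 and 223 in the same order, with CDH5 at 0, 4, 27 and 12 counts. Fibroblast markers (6 genes, LUM at 0) summed to 6.26, 6.86, 24.9 and 22.3, neural markers (6 genes) to 0.581, 0.624, 1.14 and 1.40, and lymphoid markers (6 genes, MS4A1 at 0) to 35.6, 36.6, 23.2 and 25.2. Whether these shifts have a part in the differences given below was not tested.

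Normalized CPM are the CPM after TMM scaling of the library sizes. They are given below in the order empty vector replicates 1 and 2, then RUNX1::ERG replicates 1 and 2, and log2 fold changes are RUNX1::ERG relative to the empty vector with the standard error (SE) of the fit. The median fitted log2 fold change of the 33 tested genes was 0.16, with 18 above 0 and 15 below, while the median over all genes tested was -0.00. An unadjusted p under 0.05 was reached by 11 of the 33, and by 2767 of the 15394 genes tested in all. Both RUNX1::ERG libraries lay above both empty vector libraries for 13 of them, or 39.4% (25.1% of all genes tested), and below both for 5, or 15.2% (22.1% of all genes tested). Of the 33, SEMA3C passed the filter on low counts through the RUNX1::ERG libraries alone. It is among the 13 genes that lay above both controls, an order that this filter favoured.

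**Figure D1:**
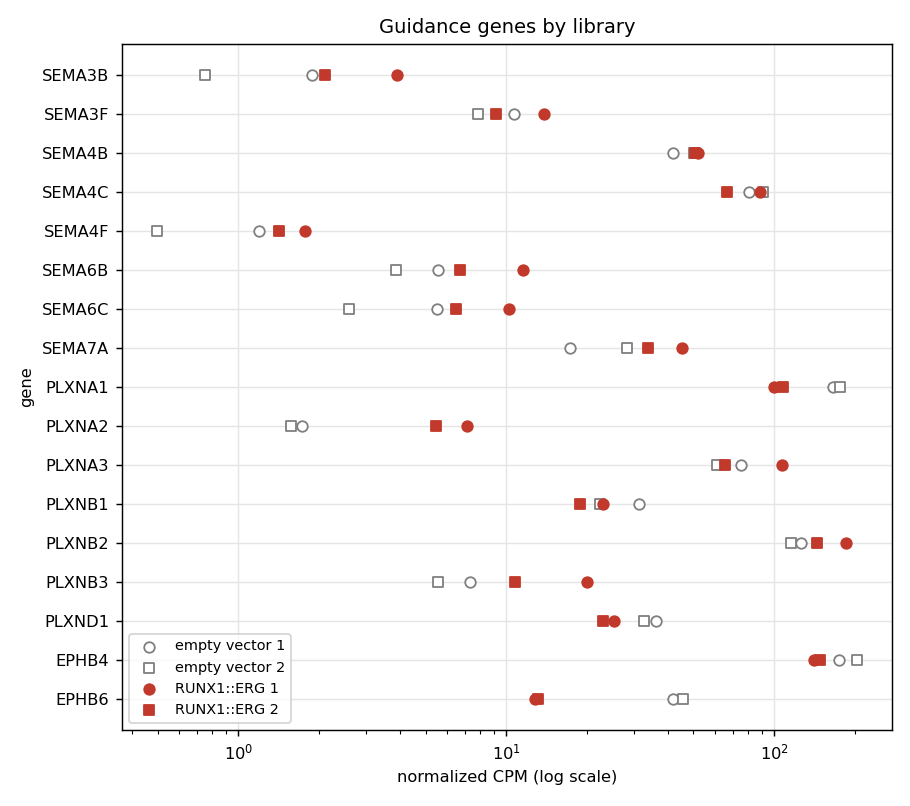
Normalized CPM on a log scale (x axis) of the 17 guidance genes described one by one (y axis), with open symbols for the empty vector and filled symbols for RUNX1::ERG, circles for replicate 1 and squares for replicate 2. The filled symbols of PLXNA2 and PLXNB3 lie to the right of the open ones and those of PLXNA1 and EPHB6 to the left, while the groups overlap for PLXNA3, PLXNB1, SEMA3F and SEMA4C.

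The plexin receptors held 3 of the 4 calls. Of the 9 plexins, 8 were tested, and 2 rose, 1 fell and 5 did not pass the test. Among all genes tested, 3.64% were called higher and 1.15% lower. The fitted log2 fold changes of the 8 plexins ran from -0.97 to 1.94 around a median of -0.01. PLXNA2 (gene 5362, GRCh37 chr1:208195587-208417729, minus strand) was at 1.73, 1.57, 7.15 and 5.48 normalized CPM, from 104, 111, 603 and 394 counts. Both RUNX1::ERG libraries were far above both controls, and the group means were 1.65 ± 0.108 and 6.32 ± 1.18 (SD, n = 2). Its log2 fold change was 1.94 (SE 0.30, adjusted p = 0.00468). The value stayed between 1.73 and 2.10 when each library was left out in turn.

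PLXNA1 (gene 5361, GRCh37 chr3:126701536-126756232, plus strand) is also a class A plexin and moved the other way. Its normalized CPM were 166.5, 175, 99.5 and 108, from 10028, 12373, 8388 and 7762 counts. Both RUNX1::ERG libraries were below both controls, with means of 171 ± 6.33 and 104 ± 5.997 (SD, n = 2). The log2 fold change was -0.72 (SE 0.15, adjusted p = 0.0235). Without RUNX1::ERG replicate 1 it was -0.66 with an adjusted p of 0.132, which no longer passed. Per kilobase of exon, PLXNA2 amounted to 0.842% and 0.728% of PLXNA1 in the empty vector libraries and to 5.83% and 4.12% with RUNX1::ERG. PLXNA1 thus remained the more abundant of the pair in every library.

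PLXNB3 (gene 5365, GRCh37 chrX:153029651-153044801, plus strand) was at 7.32, 5.57, 19.9 and 10.8 normalized CPM. The 2 RUNX1::ERG libraries differed from each other by more than the controls did, and both were above them, with means of 6.45 ± 1.24 and 15.3 ± 6.50 (SD, n = 2). The log2 fold change was 1.25 (SE 0.30, adjusted p = 0.0418). It was 0.74 with an adjusted p of 0.373 when RUNX1::ERG replicate 1, the library with more ERG, was left out. Of its exon bases, 20.4% are shared with SRPK3, a protein kinase gene, so reads could be split between them. SRPK3 itself was at 9.13, 7.42, 15.0 and 10.8 normalized CPM, with a log2 fold change of 0.64 (adjusted p = 0.191). SEMA5A, the ligand of PLXNB3, had no read in any library.

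The other plexins did not pass the test. PLXNB2, the receptor of SEMA4C and the most abundant plexin per kilobase, was at 126, 116, 185 and 145 normalized CPM, higher in both RUNX1::ERG libraries (log2 fold change 0.45, SE 0.17, adjusted p = 0.185). PLXND1, the SEMA3E receptor, was at 36.3, 32.7, 25.2 and 22.9, lower in both RUNX1::ERG libraries (log2 fold change -0.52, SE 0.18, adjusted p = 0.142). Groups did not overlap for either gene. PLXNA3 was at 75.4, 61.2, 107 and 65.6 normalized CPM, with RUNX1::ERG replicate 2 inside the range of the controls (log2 fold change 0.34, adjusted p = 0.495). PLXNB1, the SEMA4D receptor, was at 31.3, 22.3, 22.9 and 18.8 and its groups also overlapped (log2 fold change -0.36, adjusted p = 0.439). Without empty vector replicate 1 the value of PLXNB1 was -0.10 and without replicate 2 it was -0.59, and that of PLXNB2 was 0.26 without RUNX1::ERG replicate 1. PLXNC1, the plexin of SEMA7A, was near the lower end of the tested genes at 0.863, 0.666, 0.498 and 0.278 normalized CPM (log2 fold change -0.97, adjusted p = 0.377). PLXNA4 had 4 to 10 counts per library and was not tested.

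Summed per kilobase, the plexin RNA of each library amounted to 46.8 and 43.5 normalized CPM per kilobase with the empty vector and to 51.9 and 41.4 with RUNX1::ERG, ranges that overlap. The class A plexins summed to 21.4 and 21.0 with the empty vector and to 18.5 and 15.6 with RUNX1::ERG, and the class B plexins to 21.6 and 19.0 and to 30.7 and 23.4. Each sum was mostly that of a few genes, PLXNA1 and PLXNA3 in class A and PLXNB2 in class B, and single members went against it, as PLXNA2 rose and the fitted values of PLXNA3 (0.34) and PLXNB1 (-0.36) had the sign opposite to their class. PLXNA1 was 85.7% and 98.0% of PLXNB2 in the controls and 34.8% and 48.3% with the fusion, again per kilobase. An exact permutation test of 2 against 2 libraries cannot give a p below 0.333, so these sums are descriptions.

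The neuropilins were close to the limit of detection. NRP1, the co-receptor of SEMA3A and VEGF, had 12, 2, 13 and 0 counts, and the groups overlapped (adjusted p = 0.907). NRP2, preferred by SEMA3F, had 0 and 0 counts with the empty vector and 5 and 8 with RUNX1::ERG, under the filter. Without the filter NRP2 gave an adjusted p of 0.3, so no difference was detectable at this depth. 

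The secreted class 3 semaphorins had fitted values above 0 for all 5 of the 7 that were tested, but none passed the test. Among all genes tested, 7672 of 15394 had a fitted value above 0. The log2 fold changes of the 5 ran from 0.31 to 1.20. The class median of 0.76 is the value of SEMA3C, which passed the filter on low counts only through the RUNX1::ERG libraries, so that a higher value there was favoured. SEMA3B, known as a growth suppressor in lung cancer, was at 1.88, 0.752, 3.90 and 2.10 normalized CPM. The 2 controls differed by more than the gap between empty vector replicate 1 and RUNX1::ERG replicate 2 (log2 fold change 1.20, SE 0.47, adjusted p = 0.206). Leaving out one control library at a time gave 2.00 without replicate 1 (adjusted p = 0.000494, past the threshold) and 0.68 without replicate 2. SEMA3B was also called without the filter on low counts (adjusted p = 0.0174) and with the replicate block (adjusted p = 0.0213). SEMA3F was at 10.7, 7.86, 13.9 and 9.17 normalized CPM, with overlapping groups (log2 fold change 0.31, adjusted p = 0.612), and its fitted value was -0.02 without RUNX1::ERG replicate 1. The other tested members, SEMA3A, SEMA3C and SEMA3E, had between 8 and 190 counts per library and adjusted p from 0.511 to 0.667. Both RUNX1::ERG libraries were above both controls for each of them, as for 25.1% of all genes tested. SEMA3D (2 to 16 counts) and SEMA3G (0 to 6 counts) were under the filter.

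Among the membrane-bound semaphorins, none passed the test. SEMA7A, a GPI-anchored ligand of PLXNC1 and beta-1 integrins and the carrier of the John Milton Hagen blood group on red cells, was at 17.2, 28.2, 45.3 and 33.7 normalized CPM. Both RUNX1::ERG libraries were above both controls, which differed between themselves (log2 fold change 0.80, SE 0.25, adjusted p = 0.105). It was called by the DESeq2 Wald test (adjusted p = 0.0348) and without the filter on low counts (adjusted p = 0.00392). Its log2 fold change was 0.49 without empty vector replicate 1 (adjusted p = 0.244), 1.20 without empty vector replicate 2 (adjusted p = 0.000111) and 0.98 without RUNX1::ERG replicate 2 (adjusted p = 0.0254). Beta-1 integrin (ITGB1) was at 348, 351, 369 and 443 normalized CPM, with a log2 fold change of 0.22 (adjusted p = 0.517).

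Class 6 semaphorins are transmembrane ligands of class A plexins, PLXNA2 included, and 3 of the 4 were tested. SEMA6B was at 5.55, 3.89, 11.6 and 6.72 normalized CPM, and both RUNX1::ERG libraries were above both controls (log2 fold change 0.96, SE 0.31, adjusted p = 0.121). SEMA6C was at 5.53, 2.58, 10.3 and 6.48, also without overlap (log2 fold change 1.05, SE 0.37, adjusted p = 0.152). The spread within each group was large beside the gap between groups for both genes. SEMA6B was called by the DESeq2 Wald test (adjusted p = 0.0406) and SEMA6C was not (adjusted p = 0.05). Without the filter on low counts their adjusted p were 0.0132 and 0.00598, and with the replicate block 0.0166 and 0.00985, all past the threshold. The log2 fold change of SEMA6B ran from 0.51 without RUNX1::ERG replicate 1 to 1.28 without RUNX1::ERG replicate 2. For SEMA6C it ran from 0.60 without empty vector replicate 2 to 1.70 without empty vector replicate 1. SEMA6A was at 1.25 to 2.51 normalized CPM with overlapping groups, and SEMA6D had no read.

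Class 4 semaphorins, transmembrane ligands with roles in lymphocytes and in the nervous system, were all tested and none of the 6 passed. SEMA4C, a ligand of PLXNB2, was at 80.8, 91.2, 88.2 and 66.7 normalized CPM, with overlapping groups (log2 fold change -0.15, adjusted p = 0.742). Its sign rested on RUNX1::ERG replicate 2, as the value was 0.02 without it. SEMA4B was at 41.8, 50.4, 52.2 and 50.8, and the last 3 of these lie close together (log2 fold change 0.16, adjusted p = 0.704). SEMA4F was at 1.20, 0.496, 1.77 and 1.42 normalized CPM (log2 fold change 0.92, SE 0.47, adjusted p = 0.349). It passed the threshold only when empty vector replicate 1 was left out (1.68, adjusted p = 0.0279). SEMA4D, known on T cells and as the ligand of PLXNB1, was between 6.78 and 7.55 in all 4 libraries, with an adjusted p of 0.947. SEMA4A and SEMA4G overlapped between groups as well, and 28% of the exon bases of SEMA4G are shared with MRPL43 and a further gene. The 2 class 5 semaphorins were not tested, as SEMA5A had no read and SEMA5B 1 to 4 counts.

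Of the 14 Eph receptors, 3 were tested, and the smallest adjusted p of the 33 tested guidance genes belonged to EPHB6 (gene 2051, GRCh37 chr7:142552823-142568847, plus strand). EPHB6 can pair with EPHB4 and other kinase-active Eph receptors. Its normalized CPM were 42.0, 45.8, 12.8 and 13.1, from 2530, 3232, 1082 and 941 counts. Replicates lay close together in both groups and the groups did not overlap, with means of 43.9 ± 2.70 and 12.96 ± 0.181 (SD, n = 2). The log2 fold change was -1.76 (SE 0.18, adjusted p = 0.000472). It ran from -1.82 to -1.70 over the fits that left out 1 library, and EPHB6 was called in every one of these and in each fit with another scaling, filter, test or the replicate block.

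EPHB4, a kinase-active receptor of EFNB2 with roles in veins and in erythroid progenitors, was the most abundant guidance gene per kilobase in the controls. It was at 174, 205, 140 and 148 normalized CPM, and both RUNX1::ERG libraries were below both controls (log2 fold change -0.39, SE 0.16, adjusted p = 0.215). EPHB6 amounted to 29.1% and 27.1% of EPHB4 per kilobase in the controls and to 11.1% and 10.7% with RUNX1::ERG. On this ratio the replicates of a group lay close together and the groups far apart. EPHA2, the only tested EphA receptor, was at 0.284 to 0.614 normalized CPM with overlapping groups (log2 fold change 0.02, adjusted p = 0.991). EPHA3, EPHA5, EPHA6, EPHA7 and EPHB1 had no read in any library, and EPHA1, EPHA4, EPHA8, EPHA10, EPHB2 and EPHB3 had at most 18 counts, reached by EPHA4 in empty vector replicate 1. Summed per kilobase, Eph receptor RNA was 35.2 and 40.5 normalized CPM per kilobase with the empty vector and 24.4 and 25.6 with RUNX1::ERG, nearly all of it EPHB4 and EPHB6.

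None of the ephrins passed the test. EFNA1, EFNA2, EFNA3 and EFNA4 were tested among the ephrin-A ligands, with log2 fold changes from -0.64 to 0.49, a median of -0.14 and adjusted p from 0.464 to 0.891. Only EFNA1 among these 4, at 2.77, 2.51, 4.31 and 3.12 normalized CPM, had both RUNX1::ERG libraries above both controls. EFNA3 and EFNA4 share 43.9% and 15% of their exon bases with the EFNA4-EFNA3 readthrough model. EFNB1 was at 3.75 to 5.31 normalized CPM and EFNB2, the main ligand of EPHB4, had 28, 80, 37 and 75 counts. Of the exon bases of EFNB2, 36.4% are shared with another gene model, so reads could be split between them. For EFNB2 the replicate numbered 2 was the higher in both groups, so the groups overlapped (log2 fold change -0.12, adjusted p = 0.951). EFNA5 had no read and EFNB3 had at most 6 counts. The summed ephrin RNA was 9.95 and 11.3 normalized CPM per kilobase with the empty vector and 11.4 and 9.78 with RUNX1::ERG.

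**Figure D2:**
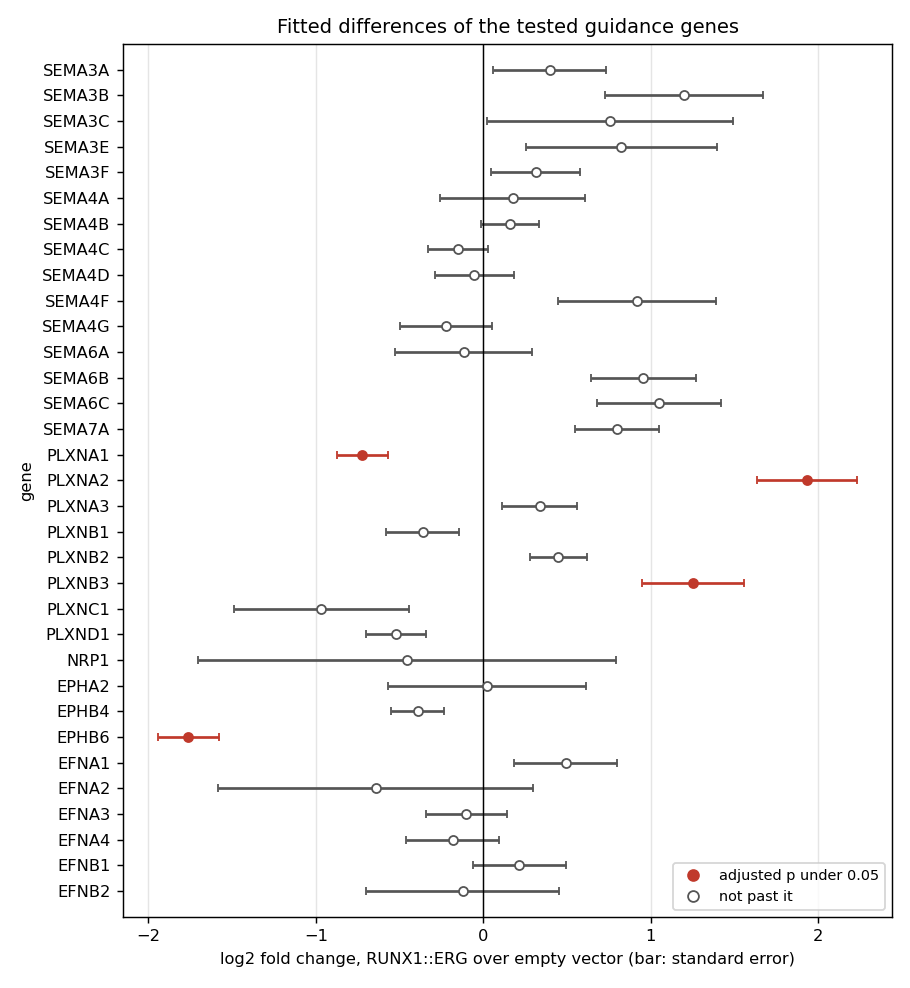
Fitted log2 fold change of the 33 tested guidance genes (RUNX1::ERG relative to the empty vector), with bars of 1 SE, ordered by family, and filled red points for the 4 genes that passed the test. EPHB6 (-1.76) and PLXNA2 (1.94) lie at the ends, PLXNA1 (-0.72) and PLXNB3 (1.25) between, and the widest bars belong to genes with few counts such as NRP1.

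Levels of different genes were compared as normalized CPM per kilobase of exon. In the controls the order began with EPHB4 at 29.4, PLXNB2 at 16.6, PLXNA1 at 15.2, SEMA4C at 13.7 and EPHB6 at 8.25. Both control libraries of each of these lay above both of the next gene. The margin was narrow for PLXNB2 over PLXNA1 (closest libraries 15.93 and 15.62) and for PLXNA1 over SEMA4C (14.82 and 14.55). SEMA4B, SEMA7A and PLXNA3 followed at 6.59, 5.98 and 5.83 and could not be ordered among themselves. With RUNX1::ERG, PLXNB2 at 22.7 and EPHB4 at 22.4 came first with overlapping libraries, followed by SEMA4C at 12.4, SEMA7A at 10.4 and PLXNA1 at 9.23. The libraries of SEMA4C, SEMA7A and PLXNA1 each overlapped with those of the next gene in that order. EPHB6, above SEMA4B, SEMA7A and PLXNA3 in the controls, stood at 2.44 with RUNX1::ERG, close to PLXND1 at 2.52 and SEMA3F at 2.39. PLXNA2 stood at 0.456 normalized CPM per kilobase with RUNX1::ERG, well under PLXNA1.

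**Figure D3:**
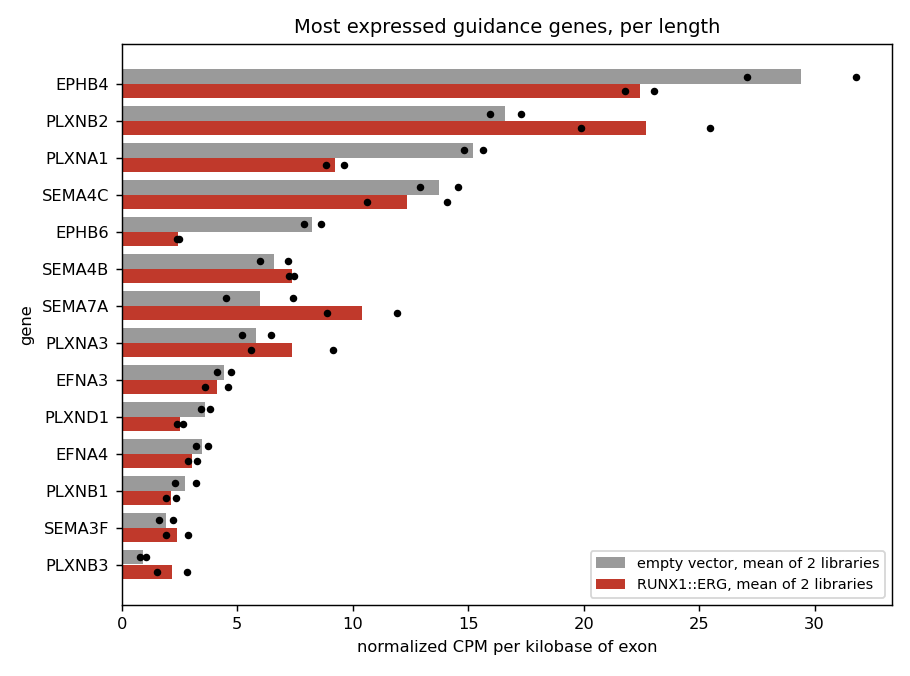
Normalized CPM per kilobase of exon (x axis, linear from 0) of the most expressed guidance genes, with bars for the mean of 2 libraries (grey for the empty vector, red for RUNX1::ERG) and points for single libraries. EPHB4 and PLXNB2 are at the top in both groups. The points of the groups lie apart for EPHB6 (8.25 and 2.44) and PLXNA1 (15.2 and 9.23). They also lie apart for EPHB4, PLXNB2, SEMA4B, SEMA7A, PLXND1 and PLXNB3.

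Set side by side, ligands and receptors of known pairs did not all have RNA in these cells. SEMA4C and PLXNB2 were both abundant, and neither passed the threshold. SEMA4D and PLXNB1 were both present at lower levels. SEMA7A was abundant while PLXNC1 was at under 1 normalized CPM in all 4 libraries. Beta-1 integrin (ITGB1), which SEMA7A also binds, was at 348 to 443 normalized CPM. PLXNA1 and PLXNA3 were abundant, unlike PLXNA2 and PLXNA4, while the neuropilins that class 3 ligands use had 0 to 13 counts. EPHB4 was abundant while EFNB2, with 36.4% of its exon bases shared with another gene model, had 28 to 80 counts. For PLXNB3 and SEMA5A the receptor was present and the ligand had no read.

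Replicate 1 of RUNX1::ERG, the library with more ERG, often had the higher value. Of the 13 guidance genes with both RUNX1::ERG libraries above both controls, of which 2 passed the test, replicate 1 exceeded replicate 2 in 11, or 84.6%, whereas it did so in 54.4% of the 3858 genes with that order among all genes tested. Of the 5 genes in the opposite order, replicate 1 exceeded replicate 2 in 2, or 40%, beside 45.2% of 3403 genes. In the empty vector, where ERG had 4 and 4 reads, replicate 1 was also the higher for all of those 13 except SEMA7A and SEMA4B. The same order of replicate numbers was thus present without the fusion. Genes of 1 library are not independent of each other, and whether the level of ERG has a part in the replicate order was not tested.

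Genes around these families were read from 3 lists. Of the 90 tested genes on them 8 were called, all higher, but 5 of the 8 (CD72, RND3, ARHGEF15, SLIT3 and ROBO4) passed the filter through the RUNX1::ERG libraries alone and so could only be called higher. Of 47 co-receptors, GTPases and effectors of semaphorins and plexins, 39 were tested, 3 rose (7.69%, beside 3.64% of all genes tested), none fell, and the median log2 fold change was 0.22. CD72, a B cell receptor of SEMA4D, had 1, 2, 127 and 56 counts (adjusted p = 0.00206). RND3, a GTPase of the Rnd family that binds plexins, had 2, 4, 28 and 38 counts (adjusted p = 0.0402). FLT1, a VEGF receptor that can pair with neuropilins, was at 1.33, 2.33, 4.31 and 5.84 normalized CPM, a log2 fold change of 1.47 (SE 0.35, adjusted p = 0.0403). All 3 had both RUNX1::ERG libraries above both controls, and CD72 and RND3 rest on few counts in the controls. MET and ERBB2, kinases that associate with class B plexins, were not called (adjusted p = 0.838 and 0.579).

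Of 43 adaptors, exchange factors and proteases of Eph and ephrin signalling, 37 were tested, 2 rose (5.41%, near the 3.64% of all genes), none fell, and the median was 0.09. SRC, a tyrosine kinase that acts downstream of both Eph receptors and ephrins and of many other receptors, was at 11.8, 9.46, 81.8 and 63.1 normalized CPM, from 711, 667, 6893 and 4536 counts. Its 2 groups were far apart (log2 fold change 2.77, SE 0.21, adjusted p = 5.82e-05). ARHGEF15, known in vascular cells, had 0, 0, 23 and 29 counts (adjusted p = 0.0162).

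Of 30 genes of other guidance families, 14 were tested, 3 rose (21.4%, beside 3.64% of all genes), none fell, and the median was 0.33. HJV, a repulsive guidance molecule and BMP co-receptor that controls hepcidin, was at 20.3, 15.4, 41.5 and 36.5 normalized CPM (log2 fold change 1.13, SE 0.20, adjusted p = 0.0104). SLIT3, a secreted ligand of ROBO receptors, had 4, 0, 59 and 64 counts (adjusted p = 0.0162), and ROBO4, the endothelial ROBO receptor, had 2, 0, 64 and 12 (adjusted p = 0.0454). For ROBO4 the 2 RUNX1::ERG libraries were far apart. SLIT3 and ROBO4 also passed the filter through the RUNX1::ERG libraries alone. Of the 10 endothelial markers, PECAM1 (192, 210, 1964 and 1780 counts, adjusted p = 5.78e-05) and VWF (1, 8, 311 and 277 counts, adjusted p = 0.000402), both also made by megakaryocytes and platelets, rose. VWF passed the filter through the RUNX1::ERG libraries alone as well, and so could only be called higher. CDH5, TIE1, ESAM, CLDN5 and EGFL7 did not pass the test, KDR and TEK had at most 2 counts in any library, and EMCN had none. PECAM1 and VWF were only a small part of the summed endothelial markers, and most of that sum came from markers that did not pass. The part of these cells or markers in the ROBO4 and FLT1 values was not tested.

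How many guidance genes passed depended on the test, and the number called higher ran from 1 to 6 over the other fits of all 4 libraries. The shares of all genes called higher and lower in these fits were 3.35% and 0.669% with library totals in place of TMM, 4.74% and 2.65% without the filter on low counts, 7.03% and 4.23% with the replicate block, 5.19% and 2.63% by the DESeq2 Wald test and 3.48% and 0.994% by limma voom. EPHB6, PLXNA1 and PLXNA2 were called in every fit of all 4 libraries. PLXNB3 missed the threshold with library totals (adjusted p = 0.0588) and with limma voom (adjusted p = 0.0645). PLXNB2 (0.0473) and PLXND1 (0.0488) had an adjusted p under 0.05 with the replicate block only.

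**Figure D4:**
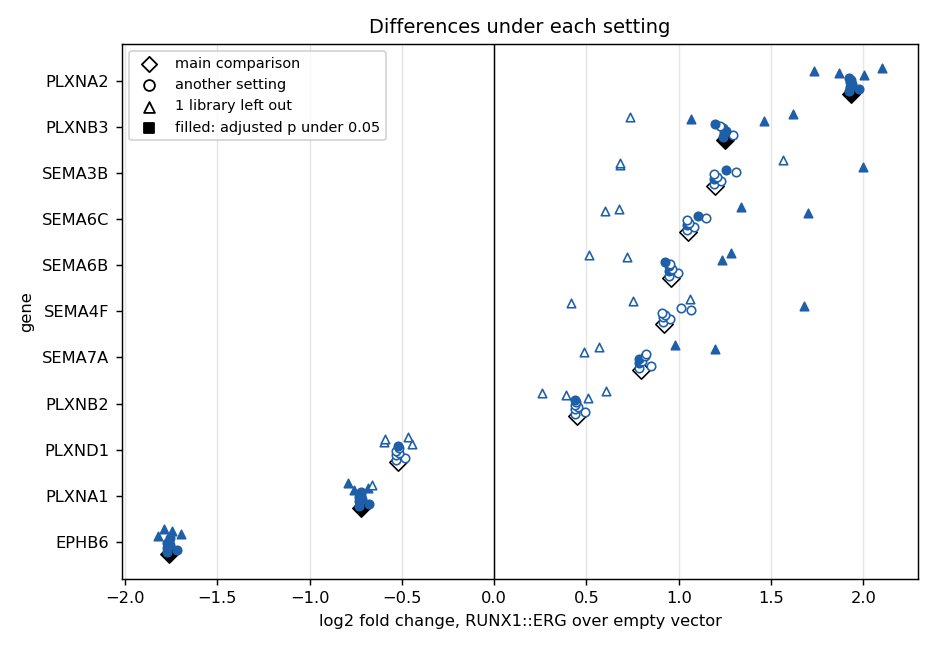
Fitted log2 fold change (x axis) of the 11 guidance genes that passed the threshold in at least 1 fit, with diamonds for the main comparison, circles for other settings of all 4 libraries and triangles for fits with 1 library left out, filled where the adjusted p was under 0.05. The points of EPHB6 and PLXNA2 are filled throughout, those of PLXNB3 spread from 0.74 to 1.62, and those of SEMA3B from 0.68 to 2.00.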

How the data were processed

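Whole transcriptome sequencing of K562 was analysed in 4 libraries, grouped by the labels as empty vector or RUNX1::ERG. The authors deposited unnormalized read counts, with each gene given by its NCBI number. The submitters' processing notes name hg19, HISAT2 2.2.1 and featureCounts 2.0.1, and the annotation and strand setting are not given in the sources used here, so overlapping and antisense genes are uncertain. Between 66.7% and 68.9% of the counts from 1 to 10 were even, as when both mates of a pair are counted, and intervals based on counts are then too narrow.

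Gene numbers were matched to symbols in a RefSeq gene table of GRCh38.p14 (23696 of 25702 genes, 92.2%). Gene positions and exon lengths are those of GENCODE v44lift37 on GRCh37, and promoter windows are from RefSeq (47 of 53 genes had one). Counts were compared in R 4.3.3 with edgeR 4.0.16 (TMM, filterByExpr with a cutoff of 0.138 CPM, quasi-likelihood test, Benjamini-Hochberg adjustment over 15394 genes, threshold 0.05). The SE is the log2 fold change divided by the square root of F. The alternatives were DESeq2 1.42.0 size factors or library totals in place of TMM, no filter, at least 10 counts in every library, the DESeq2 Wald test, limma 3.58.1 voom, a replicate block, and leaving out each library, where the lone library is assumed to vary like the other group. The code was tested on simulated data.

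Genes were described one by one if they passed the threshold in the main or an alternative fit or had a mean of at least 10 CPM, with the rest given by group, and genes of the partner lists were named if they passed in the main fit. ITGB1, MET, ERBB2, SRPK3, PECAM1, VWF and the genes near the detection limit were named for their relation to these, outside that rule. The genes and lists were chosen with earlier results of these data known. Replicates are described as biological, but no label says that they came from separate cultures or days, so p-values measure the spread between these libraries. Replicates of a group differed by more than counting noise (chi-square per degree of freedom of 88.7 and 67.6).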

Additional observations from a re-analysis of the deposited data

How the results depend on the processing

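The number of guidance genes called higher was 2 in the main fit, 1 with library totals and with limma voom, 4 by the DESeq2 Wald test, 6 without the filter on low counts and 6 with the replicate block, and from 1 to 6 with 1 library left out. The number called lower was 2, 3 with the replicate block, and 1 to 2 with 1 library left out. The share of all genes called higher moved as well, from 1.74% without RUNX1::ERG replicate 1 (1 guidance gene) to 6.37% without empty vector replicate 1 (6 guidance genes), and that called lower from 0.559% to 3.89%. Of the partner and other guidance genes, 8 were called in the main fit, 14 without the filter, 3 with at least 10 counts in every library, 14 by DESeq2, 17 with the replicate block and 5 to 13 with 1 library left out. The cause of these moves was not tested, apart from the 10-count filter, which removes genes that had few reads in the controls. The replicate numbers were not taken as pairs, since no label ties a number to a shared culture or day (correlation of same-numbered deviations 0.257). Leaving out 1 library at a time gave log2 fold changes from -0.37 to 0.02 for SEMA4C, from -0.02 to 0.57 for SEMA3F and from -0.06 to 0.64 for PLXNA3, and the sign turned without RUNX1::ERG replicate 2 for the first and without RUNX1::ERG replicate 1 for the other two. Leaving out 1 library moved the value of 12 of the 17 named genes by over 1.5 times, namely these 3, SEMA3B (0.68 to 2.00), SEMA4B (0.03 to 0.30), SEMA4F (0.41 to 1.68), SEMA6B (0.51 to 1.28), SEMA6C (0.60 to 1.70), SEMA7A (0.49 to 1.20), PLXNB1 (-0.59 to -0.10), PLXNB2 (0.26 to 0.60) and PLXNB3 (0.74 to 1.62). Over the fits of all 4 libraries, no named gene changed direction, 11 values newly passed the threshold and 2, both of PLXNB3, no longer did. With 2 libraries per group and few counts for many members, a p over the threshold does not show that a gene did not differ.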
